A study of Arabidopsis thaliana with 6 samples.

Results

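UDP-glycosyltransferases, the enzymes named UGT, were compared between cdkf;1-2 and wild type seedlings of Arabidopsis thaliana. The members were all genes whose symbol in the array annotation, or whose synonym in the RefSeq gene table, was UGT followed by digits and a letter, and which had a probe set listed for a single gene. In all, 50 genes of 13356 with such a probe set were members. Each had 1 probe set, the array's unit of several short probes for 1 transcript. 1 further measured gene of family 78 was left out by the rule. RefSeq names 63 genes this way when that gene is set aside. The other 13 of the 63 were not analysed here as single genes, and they include UGT74F2, UGT84A2 and UGT85A1. Other glycosyltransferases without a UGT name in these tables were not members.

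The mutant cdkf;1-2 carries a T-DNA insertion in the Col-0 background, and its 3 samples were set against 3 samples of wild type Col-0. CDKF;1 is a plant cyclin-dependent kinase that the study names as a kinase of the RNA polymerase II carboxy-terminal repeats, and 1 mutant allele was used. Both groups were whole seedlings harvested at 7 days, which the labels count both from sowing and from germination, 4 h into an 8 h light period, after growth at 22 °C on solid medium with 0.5% sucrose. The labels call the samples biological replicates but do not say whether they came from separate cultures, so p-values measure only the spread between these samples, which may be technical.

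UGT enzymes move a sugar from a UDP-sugar donor, most often UDP-glucose, onto a small acceptor molecule. In plants the acceptors include hormones, phenylpropanoids, flavonoids and foreign compounds, and the conjugate is usually more soluble, less active and easier to store in the vacuole than the free form. The number in a name gives the family, the following letter the subfamily and the last number the gene. Family membership follows protein sequence, so enzymes of 1 family can act on different acceptors.

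Of the 50 UGT genes 15 rose, 3 fell and 32 did not pass in cdkf;1-2 seedlings, at a limma adjusted p under 0.05 over all 22746 probe sets, of which 14.4% passed. Over all 13356 genes, 6.57% rose and 6.52% fell, so the members' share of rises, 15 of 50, lay above the background and their share of falls, 3 of 50, lay near it. In all, 20 members were higher and 4 lower with an unadjusted p under 0.05, against 1793 and 1873 of all 13356 genes. Signals were quantile-normalized between arrays, and every difference is on the log2(signal + 16) scale, cdkf;1-2 minus wild type, so that the change of a dim transcript is understated. Folds are taken on the same scale. The median difference of the 50 members was 0.13 on this scale, against -0.00099 for all genes, and the members ranged from -0.92 to 1.47. The 3 mutant samples gave members' medians of 0.16, 0.13 and 0.19 against the wild type mean.

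Of the 31 members dimmer than the median probe set 7 rose and 2 fell, and of the 19 brighter ones 8 rose and 1 fell. The shares among all genes of like brightness were not taken, so this split has no background beside it. Over the whole array 3618 probe sets passed once the 40% dimmest were left out, against 3267 of all 22746. Among the 15 rises, 6 were at least 2-fold, and 0 of the 3 falls were. These counts depend on the added 16: with 1 added 10 rises and 1 fall were at least 2-fold, and with 64 added 3 rises and 0 falls. The signals of the 2 genotypes did not overlap for any of the 18 genes that passed. They did not overlap for 25 of all 50 members, 20 higher and 5 lower, where 15.1% of all genes were higher and 16.3% lower without overlap.

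**Figure D1:**
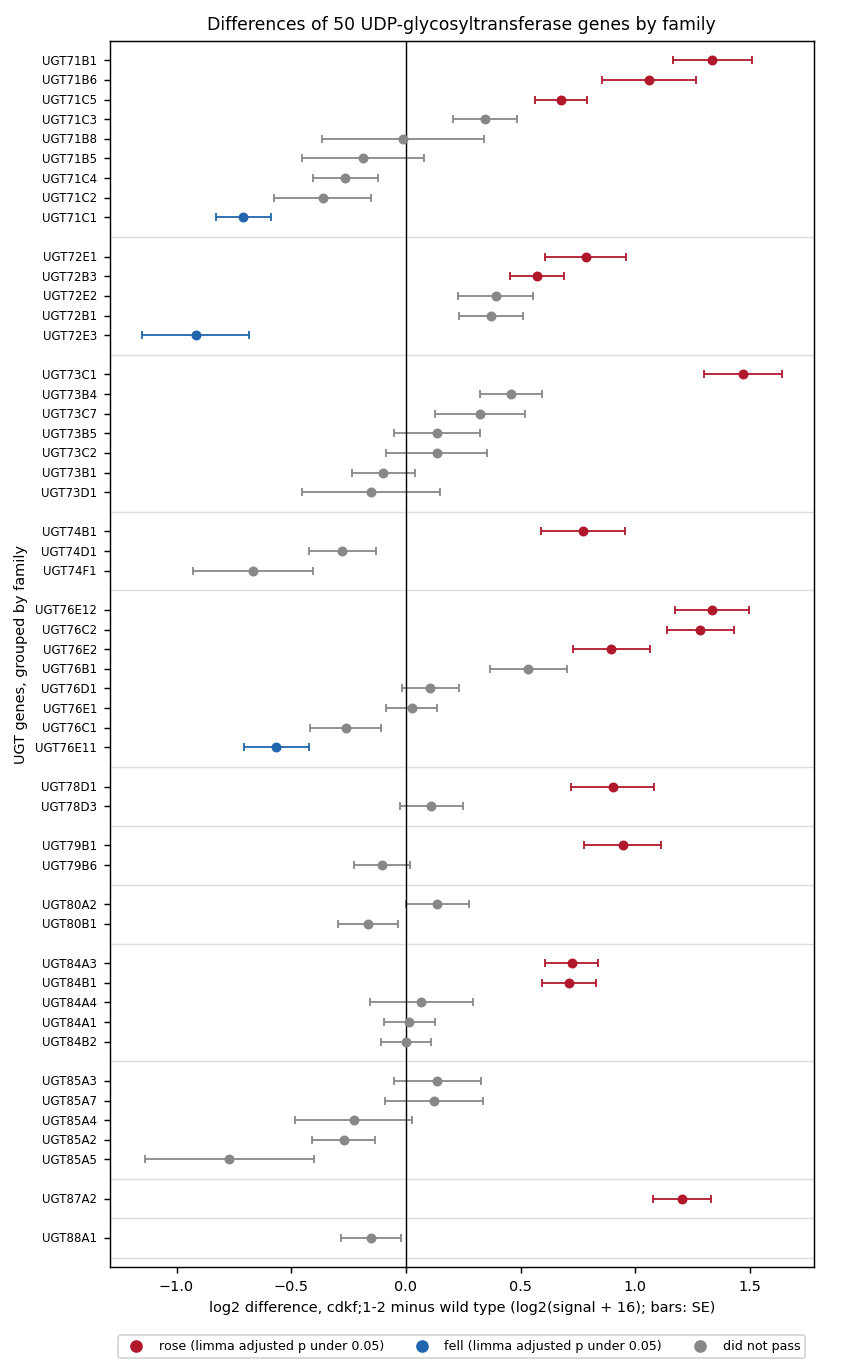
Log2 difference (cdkf;1-2 minus wild type, log2(signal + 16)) of each of the 50 UGT genes on the horizontal axis, grouped by family, with limma's SE as bars; red genes rose, blue genes fell and grey genes did not pass. The 15 rises are spread over 9 families, the 3 falls lie in families 71, 72 and 76, and the points run from -0.92 for UGT72E3 to 1.47 for UGT73C1.

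Rises came from 9 of the 12 families. Family 71 had 3 rises and 1 fall among 9 genes, family 72 had 2 rises and 1 fall among 5, and family 76 had 3 rises and 1 fall among 8. Families 73 and 74 had 1 rise each, among 7 and 3 genes. Family 84 had 2 rises among 5 genes, families 78 and 79 had 1 rise each among 2, and the single measured gene of family 87 rose. In families 80, 85 and 88 none of the 2, 5 and 1 genes passed by limma, and 0 had an unadjusted p under 0.05. The family medians of 72, 73, 76, 78, 79, 84 and 87 lay above 0 under each of 5 scalings of the arrays, while those of 71, 80 and 88 turned sign under at least 1 of them. Those of 74 and 85 turned only with hybridisation spike scaling, which moved the median of all probe sets to 0.17, and were -0.077 and -0.15 relative to it.

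Beside these counts stand values of the whole arrays. The median deposited signal was 64.1, 89.1 and 114 in cdkf;1-2 replicates 1 to 3 and 93.8, 104 and 85.0 in wild type replicates 1 to 3, and without normalization limma called 2 members higher and 0 lower (2 lower with an unadjusted p under 0.05). Relative to each array's median, the 25S ribosomal RNA control was 2.05-fold and the 27 poly(A) control probe sets 1.57-fold higher in the mutant (exact permutation p = 0.1 for each, 3 samples against 3, the smallest possible). The groups overlapped for the other controls. The 5S ribosomal RNA control was 1.09-fold and the 18 hybridisation spike probe sets were 0.86-fold (exact permutation p = 0.8 and 0.3). The 3' to 5' log2 ratios of the control transcripts, a sign of RNA quality, separated the genotypes without overlap in 5 of 6 cases (exact permutation p = 0.1 each, 3 samples against 3) and in both directions. Mutant minus wild type, actin differed by 0.12 and 0.30, GAPDH by -0.25 and 0.19 and ubiquitin by -0.39 and -0.22. Of the cotyledon and leaf markers, 4 of 13 were measured, and their summed normalized signal ranged from 26105 to 27279 in the mutant, against 33499 to 33979 in wild type, with 0 that rose and 2 that fell (limma, 0 higher and 2 lower with an unadjusted p under 0.05). Of the root markers, 2 of 11 were measured, the expansin genes EXPA7 and EXPA18. Their summed signal was 56.2 to 126 in the mutant and 210.3 to 225 in wild type, and 1 of them, EXPA18, fell. These 2 genes do not stand for the root as a whole. Of 8 seed and 6 flower markers 0 were measured. The part of these shifts in the UGT differences was not tested, and fewer cells of a type and less RNA per cell cannot be told apart in whole seedlings. The CDKF;1 transcript itself was not named on the array, which leaves the genotype labels unchecked by it.

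With 16 added the largest log2 difference was that of UGT73C1, an enzyme that can glucosylate cytokinins and the explosive trinitrotoluene. Its normalized signal was 53.3, 33.3 and 39.0 in cdkf;1-2 seedlings, against 4.54, 2.27 and 7.60 in wild type seedlings. The mutant samples were all above the wild type ones, and the rise was 2.77-fold (log2 difference 1.47, SE 0.17, limma adjusted p = 0.00246). The wild type signals were below the added 16, and the log2 difference was 2.97 with 1 added and 0.62 with 64, where other members were ahead of it in both cases. The other 3 measured genes of the list of enzymes for foreign compounds had positive differences and did not pass. UGT73B4 and UGT73B5 are known for trinitrotoluene conjugation. Their log2 differences were 0.46 and 0.14 (limma adjusted p = 0.0647 and 0.692). UGT73B4 passed once the 40% dimmest probe sets were left out (limma adjusted p = 0.0367). UGT72B1, which conjugates chlorinated phenols and anilines and is listed in the annotation as GT72B1, had a log2 difference of 0.37 (limma adjusted p = 0.127). UGT73C2, the measured neighbour of UGT73C1, had 10.6, 13.5 and 9.17 in cdkf;1-2 seedlings, against 8.03, 17.8 and 2.42 in wild type seedlings, with overlapping groups and a log2 difference of 0.14.

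Of the pair of measured cytokinin N-glucosyltransferases, which convert active cytokinins into inactive glucosides, 1 rose. Beside the counts of this and the other acceptor lists stand all members, of which 30% rose and 6% fell. Of all genes 6.57% rose and 6.52% fell. Each list held few measured members, so its count was not read as a result about that acceptor. UGT76C2 had normalized signals of 631, 515 and 458 in cdkf;1-2 seedlings, against 220.2, 209 and 196 in wild type seedlings. Its groups were far apart, and the rise was 2.44-fold (log2 difference 1.28, SE 0.15, limma adjusted p = 0.0024). UGT76C1, its direct neighbour in the genome, had signals of 99.3, 91.4 and 69.0 in cdkf;1-2 seedlings, against 105, 117 and 96.6 in wild type seedlings. These overlapped, and UGT76C1 did not pass (log2 difference -0.26, SE 0.15, limma adjusted p = 0.311).

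Among the 3 measured genes for abscisic acid, whose glucose ester is its storage form, 2 rose. UGT71C5 had normalized signals of 237, 255 and 254 in cdkf;1-2 seedlings, against 143, 159 and 146 in wild type seedlings, a rise of 1.60-fold (log2 difference 0.68, SE 0.11, limma adjusted p = 0.00913). Each group was tight, with an SD of 10.2 in the mutant and 8.41 in wild type (n = 3 each). UGT71B6 had signals of 11.7, 21.6 and 32.4 in cdkf;1-2 seedlings, against 3.01, 1.29 and 0.946 in wild type seedlings (log2 difference 1.06, SE 0.21, limma adjusted p = 0.0153). Its wild type signals lay far below the added 16, and the log2 difference became 3.02 with 1 added and 0.38 with 64. The call of UGT71B6 was lost without wild type replicate 2 (log2 1.04, adjusted p = 0.0652), wild type replicate 3 (log2 1.03, adjusted p = 0.0573) or cdkf;1-2 replicate 2 (log2 1.05, adjusted p = 0.0525). UGT71B8 spread widely in both groups, up to 24.0 in the mutant and 27.5 in wild type with 1 sample of each far below the others, and its log2 difference was -0.013, with a sign that turned on the deposited signals and with median centring.

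For auxin, 1 of 3 measured members rose. IAGLU, an indole-3-acetate glucosyltransferase gene without a UGT name in these tables, is not in this count. It also rose (log2 difference 0.68, SE 0.15, limma adjusted p = 0.0233). UGT84B1, which makes the glucose ester of indole-3-acetic acid, had normalized signals of 13.3, 11.2 and 15.1 in cdkf;1-2 seedlings, against 2.32, 2.31 and 0.875 in wild type seedlings. The groups did not overlap (log2 difference 0.71, SE 0.12, limma adjusted p = 0.00879), but all 6 signals were below the added 16, and the log2 difference was 2.36 with 1 added and 0.23 with 64. UGT84B2, its neighbour, stayed at or below 1.78 in every sample of both genotypes. UGT74D1, which also acts on auxins, had signals of 766, 634 and 634 in cdkf;1-2 seedlings, against 952, 782 and 744 in wild type seedlings, which overlapped (log2 difference -0.28, limma adjusted p = 0.265).

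Of 3 measured genes for salicylic acid and related defence signals none passed by limma, while 2 were higher and 1 lower with an unadjusted p under 0.05. UGT76B1 glucosylates isoleucic acid, salicylic acid and N-hydroxypipecolic acid. Its normalized signals were 242, 313 and 334 in cdkf;1-2 seedlings, against 225, 168 and 204 in wild type seedlings (log2 difference 0.53, SE 0.17, limma adjusted p = 0.0773). The groups did not overlap, and UGT76B1 passed without cdkf;1-2 replicate 1 (log2 0.67, adjusted p = 0.0297), with array weights (adjusted p = 0.0121) and once the 40% or 60% dimmest probe sets were left out (adjusted p = 0.0371 and 0.0337). UGT71C3, which glucosylates methyl salicylate, had a log2 difference of 0.35 (limma adjusted p = 0.149). UGT74F1, which makes salicylic acid glucoside, had signals of 5.42, 8.77 and 26.3 in cdkf;1-2 seedlings, against 33.9, 32.1 and 21.4 in wild type seedlings. Its groups overlapped in 1 mutant sample (log2 difference -0.67, limma adjusted p = 0.139, and -1.31 with 1 added), and it passed without cdkf;1-2 replicate 3 (log2 -0.96, adjusted p = 0.0303).

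The list for lignin precursors and hydroxycinnamic acids held 6 measured genes, of which 2 rose and 1 fell. UGT72E1, which acts mainly on coniferyl and sinapyl aldehydes, had normalized signals of 929.9, 637 and 863 in cdkf;1-2 seedlings, against 488, 491 and 399.9 in wild type seedlings, and rose 1.72-fold (log2 difference 0.78, SE 0.17, limma adjusted p = 0.0257). UGT72E3, which acts on the monolignol alcohols, had signals of 7.20, 4.72 and 12.8 in cdkf;1-2 seedlings, against 43.2, 31.9 and 16.9 in wild type seedlings. It fell by 0.92 in log2 units (limma adjusted p = 0.0406, SE 0.23), with the wild type samples spread over a wide range. UGT72E2, the main coniferyl alcohol glucosyltransferase, had signals of 413, 283 and 335 in cdkf;1-2 seedlings, against 254, 232 and 282 in wild type seedlings, with groups that all but touched, and did not pass (log2 difference 0.39, SE 0.16, limma adjusted p = 0.162). The 3 genes of subfamily 72E thus had 1 rise, 1 fall and 1 gene that did not pass.

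Both calls within subfamily 72E were lost when some of the samples were left out singly. That of UGT72E1 was lost without wild type replicate 1 (log2 0.83, adjusted p = 0.0667), wild type replicate 2 (log2 0.83, adjusted p = 0.0741), wild type replicate 3 (log2 0.69, adjusted p = 0.0833) or cdkf;1-2 replicate 3 (log2 0.73, adjusted p = 0.0844), and with 1 added in place of 16 (adjusted p = 0.0595). That of UGT72E3 was lost without wild type replicate 1 (log2 -0.72, adjusted p = 0.112), wild type replicate 2 (log2 -0.88, adjusted p = 0.132), cdkf;1-2 replicate 1 (log2 -0.89, adjusted p = 0.0718), cdkf;1-2 replicate 2 (log2 -0.81, adjusted p = 0.121) or cdkf;1-2 replicate 3 (log2 -1.05, adjusted p = 0.0591). It was also lost with arrays scaled on the hybridisation spikes (log2 -0.78, adjusted p = 0.0871) and with 1 or 64 added (log2 -1.78 and -0.38, adjusted p = 0.0639 and 0.0708), on the deposited signals (adjusted p = 0.181) and with the replicate number as a block (adjusted p = 0.0667).

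In subfamily 84A, whose enzymes make glucose esters of hydroxycinnamic acids, UGT84A3 had normalized signals of 183, 203 and 199 in cdkf;1-2 seedlings, against 105, 120.5 and 109.9 in wild type seedlings. It rose 1.65-fold (log2 difference 0.72, SE 0.12, limma adjusted p = 0.00805), with tight groups. Its neighbours on both sides did not pass. UGT84A1 stayed at or below 3.22 in all 6 samples, and UGT84A4 had overlapping signals of 59.0, 50.4 and 45.5 in cdkf;1-2 seedlings, against 53.9, 67.0 and 29.9 in wild type seedlings (log2 difference 0.068).

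Of 4 measured genes for flavonols and anthocyanins 2 rose. UGT79B1, listed in the annotation as UF3GT, adds xylose to anthocyanins. Its normalized signals were 58.1, 85.7 and 78.6 in cdkf;1-2 seedlings, against 34.7, 33.2 and 24.1 in wild type seedlings, a rise of 1.93-fold (log2 difference 0.95, SE 0.17, limma adjusted p = 0.0108). UGT78D1, the flavonol 3-O-rhamnosyltransferase, had signals of 79.0, 124 and 128 in cdkf;1-2 seedlings, against 47.9, 54.9 and 48.7 in wild type seedlings, with mutant replicate 1 nearest to wild type, and rose 1.87-fold (log2 difference 0.90, SE 0.18, limma adjusted p = 0.0176). The call of UGT78D1 was lost without wild type replicate 1 (log2 0.87, adjusted p = 0.0656), wild type replicate 2 (log2 0.95, adjusted p = 0.0575), wild type replicate 3 (log2 0.88, adjusted p = 0.0612), cdkf;1-2 replicate 2 (log2 0.81, adjusted p = 0.0619) or cdkf;1-2 replicate 3 (log2 0.80, adjusted p = 0.0615). UGT78D3, a flavonol arabinosyltransferase, and UGT79B6, a flavonol glucoside glucosyltransferase best known from pollen, were dim in both genotypes. UGT78D3 stayed at or below 6.52 and UGT79B6 at or below 4.82, and neither passed (log2 differences 0.11 and -0.10).

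UGT74B1, the S-glucosyltransferase that makes the core of glucosinolates, the sulfur-rich defence compounds of the cabbage family, had normalized signals of 759, 739 and 491 in cdkf;1-2 seedlings, against 385, 390.2 and 350.0 in wild type seedlings. All mutant samples were above wild type, replicate 3 by the least, and the rise was 1.71-fold (log2 difference 0.77, SE 0.18, limma adjusted p = 0.0321). The call was lost without wild type replicate 1 (log2 0.79, adjusted p = 0.0875), wild type replicate 2 (log2 0.80, adjusted p = 0.0948), wild type replicate 3 (log2 0.73, adjusted p = 0.0983), cdkf;1-2 replicate 1 (log2 0.66, adjusted p = 0.0571) or cdkf;1-2 replicate 2 (log2 0.68, adjusted p = 0.101), and with 1 added in place of 16 (adjusted p = 0.0697). The sterol glucosyltransferases, which are distant from the other families in sequence, did not pass. UGT80A2, listed in the annotation as SGT, had a log2 difference of 0.14 and UGT80B1 one of -0.16.

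**Figure D2:**
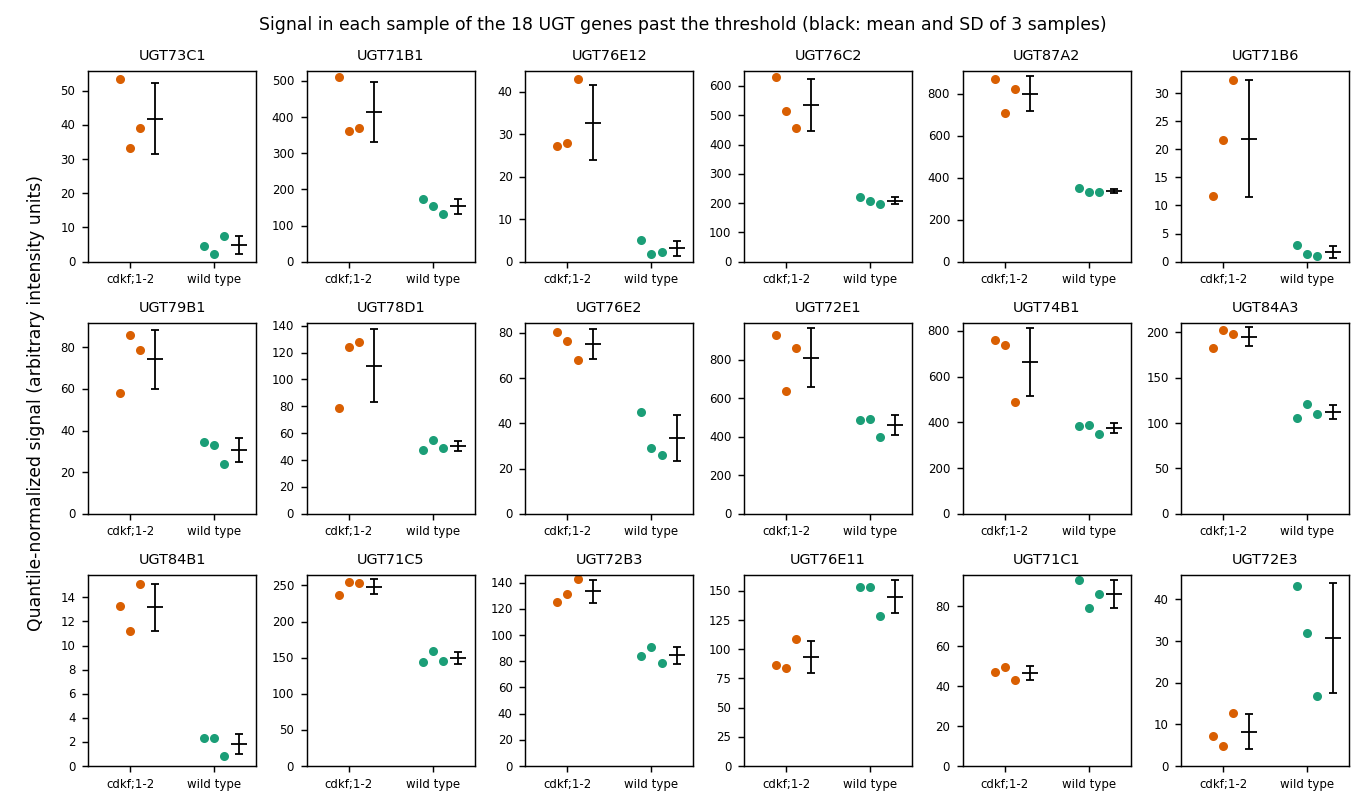
Quantile-normalized signal (vertical axis, arbitrary intensity units, from 0) in each sample of the 18 UGT genes past the threshold, with cdkf;1-2 on the left and wild type on the right of each panel and black bars for the mean and SD of 3 samples. The groups are apart in every panel, from 710.3 to 870.2 against 331 to 350.3 for UGT87A2 down to 11.2 to 15.1 against 0.875 to 2.32 for UGT84B1.

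Further genes that passed belonged to none of the acceptor lists. UGT87A2, an enzyme whose loss delays flowering, had normalized signals of 870.2, 710.3 and 823 in cdkf;1-2 seedlings, against 350.3, 331 and 332 in wild type seedlings. This was a rise of 2.30-fold (log2 difference 1.20, SE 0.13, limma adjusted p = 0.00164), the smallest p among the members, and the wild type samples lay close together. UGT71B1 had signals of 509.6, 362 and 371 in cdkf;1-2 seedlings, against 173, 155 and 131 in wild type seedlings, and rose 2.53-fold (log2 difference 1.34, SE 0.17, limma adjusted p = 0.00357). Mutant replicate 1 was the highest, and the lowest mutant sample was above the highest wild type one. UGT72B3, of the same subfamily as UGT72B1, had signals of 126, 132 and 143 in cdkf;1-2 seedlings, against 84.0, 91.1 and 78.6 in wild type seedlings, and rose 1.49-fold (log2 difference 0.57, SE 0.12, limma adjusted p = 0.0201). Its call was lost without wild type replicate 1 (log2 0.57, adjusted p = 0.0674), wild type replicate 2 (log2 0.62, adjusted p = 0.0575), wild type replicate 3 (log2 0.53, adjusted p = 0.0651), cdkf;1-2 replicate 2 (log2 0.58, adjusted p = 0.0625) or cdkf;1-2 replicate 3 (log2 0.53, adjusted p = 0.073), and with arrays scaled to a common trimmed mean (adjusted p = 0.0525).

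Subfamily 76E had 4 measured genes in pairs of neighbours, of which 2 rose and 1 fell. UGT76E12 had normalized signals of 27.1, 28.0 and 42.8 in cdkf;1-2 seedlings, against 5.21, 1.83 and 2.38 in wild type seedlings, a rise of 2.52-fold (log2 difference 1.34, SE 0.16, limma adjusted p = 0.00284). The wild type signals were below the added 16, and the log2 difference was 3.08 with 1 added and 0.52 with 64. Its neighbour UGT76E11, whose enzyme can act on flavonols, went the other way, with signals of 86.7, 83.8 and 109 in cdkf;1-2 seedlings, against 154, 153 and 129 in wild type seedlings. UGT76E11 fell by 0.57 in log2 units (limma adjusted p = 0.0381, SE 0.14). In the second pair, UGT76E2 had signals of 80.6, 76.6 and 67.9 in cdkf;1-2 seedlings, against 45.0, 29.2 and 26.2 in wild type seedlings, and rose 1.86-fold (log2 difference 0.90, SE 0.17, limma adjusted p = 0.0131). UGT76E1, which acts on a hydroxylated jasmonate, stayed at or below 2.79 in all 6 samples.

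The fall of UGT76E11 was the less stable side of the first pair. Its call was lost without wild type replicate 1 (log2 -0.53, adjusted p = 0.117), wild type replicate 2 (log2 -0.53, adjusted p = 0.133), wild type replicate 3 (log2 -0.64, adjusted p = 0.0567), cdkf;1-2 replicate 1 (log2 -0.53, adjusted p = 0.0617) or cdkf;1-2 replicate 2 (log2 -0.51, adjusted p = 0.119). It was also lost with median centring, with hybridisation spike scaling and with 1 added in place of 16 (log2 -0.56, -0.37 and -0.64, adjusted p = 0.0693, 0.289 and 0.0704), and with the replicate number as a block (adjusted p = 0.0682). The call of UGT76E12 was kept in each of these settings. On the deposited signals both were lost (adjusted p = 0.0525 for UGT76E12 and 0.36 for UGT76E11), and that of UGT76E2 was lost without wild type replicate 2 (log2 0.84, adjusted p = 0.0619).

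The third fall was that of UGT71C1, whose enzyme can act on lignans. Its normalized signals were 46.9, 49.7 and 42.9 in cdkf;1-2 seedlings, against 93.2, 79.4 and 86.1 in wild type seedlings. Both groups were tight, and the gene fell by 0.71 in log2 units (limma adjusted p = 0.00917, SE 0.12). The call was kept when any 1 sample was left out and was lost with hybridisation spike scaling (log2 -0.52, adjusted p = 0.0713) and on the deposited signals (log2 -0.78, adjusted p = 0.119). UGT71C2, next to it, had overlapping signals of 61.4, 36.6 and 54.7 in cdkf;1-2 seedlings, against 70.9, 88.9 and 51.2 in wild type seedlings (log2 difference -0.36, SE 0.21, limma adjusted p = 0.312).

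The remaining members did not pass. UGT85A5, of family 85, had the most negative difference without a pass, with signals of 12.7, 1.35 and 32.9 in cdkf;1-2 seedlings, against 32.1, 48.5 and 23.0 in wild type seedlings (log2 difference -0.77, SE 0.37, limma adjusted p = 0.215). Its groups overlapped, and the log2 difference was -1.72 with 1 added and -0.32 with 64. UGT88A1, the only member of family 88, had signals of 1529, 1819 and 1636 in cdkf;1-2 seedlings, against 2041, 1756 and 1749 in wild type seedlings. These overlapped, and its log2 difference of -0.15 turned positive under 3 of the other scalings. The other 9 members that were not named had log2 differences from -0.27 to 0.32.

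Many UGT genes sit side by side in the genome as tandem copies, so neighbours were compared directly. In 15 pairs of UGT genes the members were at most 3 gene steps apart with no other measured gene between them. In 0 pairs did both genes pass in the same direction, against 1.39% of 10252 other neighbouring pairs. In 8 pairs 1 gene passed and the other did not, in 6 neither did, and in 1 pair, UGT76E12 and UGT76E11, the calls were opposite, against 0.907% of other pairs. The shares of other pairs with 1 call or with none were not counted, so the 8 and the 6 have no background. A further 7 pairs lay within 3 gene steps with another measured gene between them. Among these UGT71B1 and UGT71B6 both rose, so that over all 22 pairs 1 was called in the same direction and 1 in opposite directions, against 1.38% and 0.963% of 17236 other pairs. For each sample the log2 signal of 1 neighbour was subtracted from that of the other, and this value was compared between genotypes.

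The difference between neighbours did not overlap between genotypes in 8 of 15 pairs, against 34.8% of other pairs, and in 10 of the 22, against 35.1% (exact permutation p = 0.1 for each of the first 8, 3 samples against 3, the smallest the design allows, and so not below 0.05 before or after adjustment over the 15). All of the first 8 pairs but UGT71C4 and UGT71C3 held a gene that passed, and 36% of members passed against 13.1% of all genes. The share of such pairs is therefore not independent of the single-gene calls. UGT84B2, UGT84A1 and UGT76E1 stayed at or below 1.78, 3.22 and 2.79 in all samples, so their pairs show little but the other gene's change. For UGT76E12 minus UGT76E11 the difference between neighbours shifted by 1.90, with an SD over 3 samples of 0.084 in cdkf;1-2 and 0.15 in wild type. For UGT76C2 minus UGT76C1 it shifted by 1.55, with an SD of 0.10 in cdkf;1-2 and 0.11 in wild type. UGT73C1 against UGT73C2 shifted by 1.33, and UGT71C5 against UGT71C4 by 0.94. UGT71C4 itself had normalized signals of 341, 274 and 347 in cdkf;1-2 seedlings, against 399.5, 414 and 349 in wild type seedlings, and did not pass (log2 difference -0.27, SE 0.14, limma adjusted p = 0.266). For UGT71C2 minus UGT71C1 the groups overlapped (exact permutation p = 0.2 with n = 3 per group), as they did for UGT84A3 minus UGT84A4 (exact permutation p = 0.2 with n = 3 per group).

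**Figure D3:**
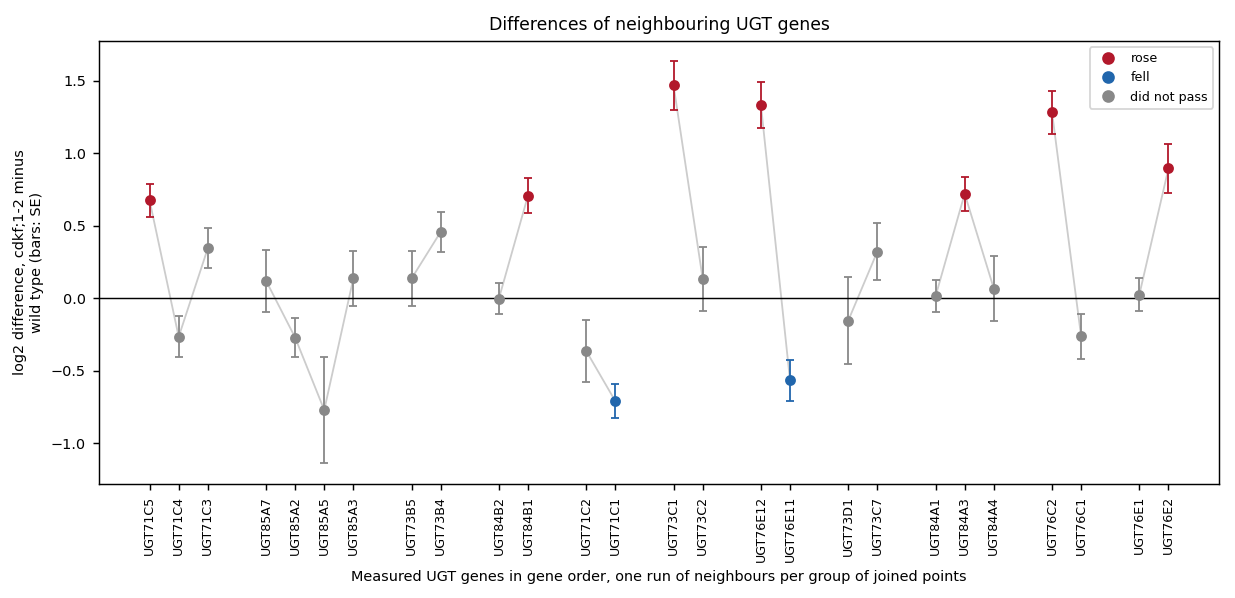
Log2 difference (vertical axis, cdkf;1-2 minus wild type, bars for limma's SE) of measured UGT genes in gene order along the horizontal axis, where joined points are neighbours with no other measured gene between them; red genes rose, blue fell and grey did not pass. UGT76E12 at 1.34 stands beside UGT76E11 at -0.57, UGT76C2 at 1.28 beside UGT76C1 at -0.26, and in the runs drawn no joined points share a colour other than grey. UGT71B1 and UGT71B6, which both rose, are not drawn, since another measured gene lies between them.

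Genes that act before, beside or against the UGT enzymes were read from lists of symbols, most of whose genes were not measured under those names. Of 12 glutathione S-transferases, which conjugate foreign compounds with glutathione, 4 rose and 1 fell (limma, median log2 difference 0.43), where 13.1% of all genes were called in either direction. GSTU20 had normalized signals of 2159, 2301 and 2624 in cdkf;1-2 seedlings, against 266, 329.6 and 507 in wild type seedlings, with no overlap (log2 difference 2.68, SE 0.23, limma adjusted p = 0.000759). GSTU25, GSTU16 and GSTU26 differed by 0.94, 0.80 and -0.87 on the log2 scale, the last a fall.

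Of 22 beta-glucosidases, a family whose enzymes remove glucose from conjugates and other glucosides, 2 rose and 5 fell (limma, median log2 difference -0.0043). Over all genes 6.57% rose and 6.52% fell. BGLU46, which acts on monolignol glucosides, had signals of 72.2, 74.7 and 72.0 in cdkf;1-2 seedlings, against 239, 242 and 232 in wild type seedlings. It fell by 1.51 in log2 units (limma adjusted p = 0.0005, SE 0.11). BGLU33, which releases abscisic acid from its glucose ester, fell by 1.22 (limma adjusted p = 0.00296, SE 0.15), and BGLU25 rose 2.40-fold (log2 difference 1.26, SE 0.16, limma adjusted p = 0.00299). BGLU43 fell by 0.85 (limma adjusted p = 0.00489, SE 0.12). Its signals were 1.97, 1.95 and 0.627 in cdkf;1-2 seedlings, against 12.9, 16.1 and 17.8 in wild type seedlings, all near or below the added 16.

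Of 5 measured enzymes that make phenylpropanoid and flavonoid acceptors 2 rose and 0 fell by limma (unadjusted p under 0.05 in 3 that were higher and 0 that were lower). The shares over all genes were again 6.57% and 6.52%. DFR, dihydroflavonol reductase of the anthocyanin branch, had normalized signals of 117, 106 and 74.9 in cdkf;1-2 seedlings, against 26.0, 13.5 and 17.6 in wild type seedlings (log2 difference 1.71, SE 0.19, limma adjusted p = 0.00229), and CCOAMT, a caffeoyl-CoA methyltransferase gene, rose 1.82-fold (log2 difference 0.87, SE 0.15, limma adjusted p = 0.0107). The only measured gene of UDP-sugar supply, USP, a UDP-sugar pyrophosphorylase, did not pass (log2 difference -0.35, SE 0.15, limma adjusted p = 0.161). BSMT1, a carboxyl methyltransferase of salicylic and benzoic acids and the only measured gene of other hormone inactivation, did not pass either (log2 difference -0.19). Of 8 listed symbols for vacuolar carriers of conjugates 0 were measured.

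**Figure D4:**
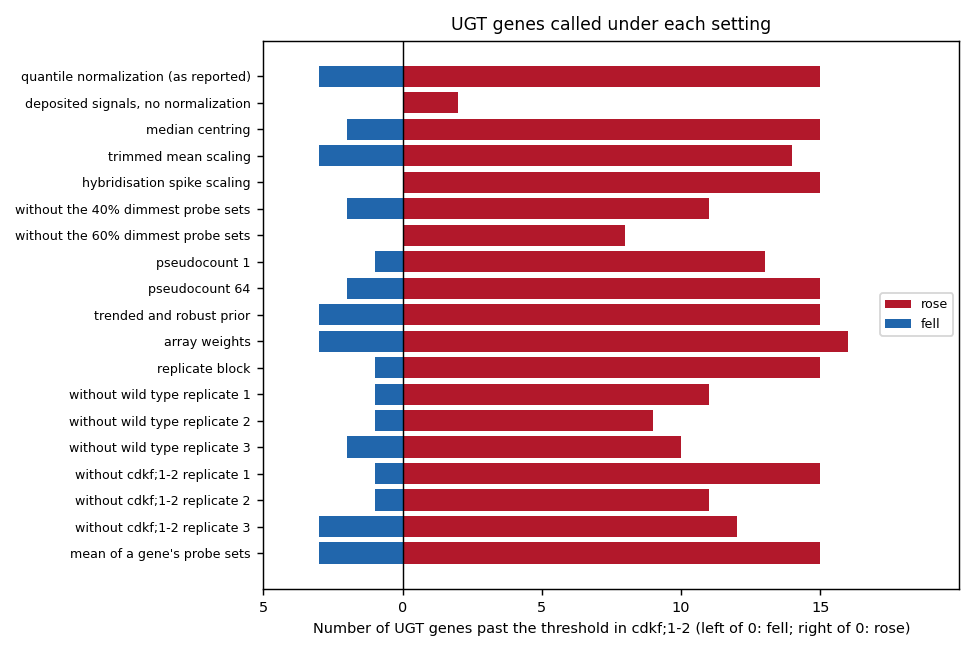
Number of UGT genes that rose (red, right of 0) and fell (blue, left of 0) in cdkf;1-2 under the reported setting, at the top, and under each alternative. The count of rises runs from 2 on the deposited signals to 16 with array weights, and that of falls from 0 to 3.

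The number of members that passed changed with the scaling of the arrays and with single samples. On the deposited signals the calls of 13 of the 15 rises were lost, and UGT73C1 (log2 1.42, adjusted p = 0.0198) and UGT76C2 (log2 1.23, adjusted p = 0.0494) passed. With hybridisation spike scaling, which shifted the median of all probe sets to 0.17, there were 15 rises and 0 falls by limma, and 2 members were lower with an unadjusted p under 0.05. The members' median was then 0.29, or 0.12 relative to all probe sets. With 1 sample left out at a time there were between 9 and 15 rises, the fewest without wild type replicate 2. These can include members that did not pass in the reported setting. In 9 of the 15 genes that rose the call was kept whichever single sample was left out, and these were UGT71B1, UGT71C5, UGT73C1, UGT76C2, UGT76E12, UGT79B1, UGT84A3, UGT84B1 and UGT87A2.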

How the data were processed

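Biotin-labelled cRNA from whole seedlings, 3 cdkf;1-2 and 3 wild type samples, was hybridised to 1-colour oligonucleotide arrays. The authors deposited 1 linear intensity per probe set and sample for 22810 probe sets. The submitters' processing notes name GCOS, whose version, settings and array scaling remain not given in the sources used here. Precision is limited by the number of arrays.

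Signals were quantile-normalized and log2(signal + 16) was taken. The 64 control probe sets were left out, and 22746 were fitted by lmFit and eBayes of limma 3.58.1 (R 4.3.3, a single genotype term, two-sided, 4 residual degrees of freedom, Benjamini-Hochberg over all 22746, threshold 0.05). Limma called 3267 probe sets, 14.4%. The fit was tested on simulated data. Neighbours and controls were compared by exact two-sided permutation tests over the samples. Other scalings, dim filters, added constants, variance settings, the replicate block and samples left out were tried.

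Genes were named from the array annotation and RefSeq TAIR10.1. In all, 13513 probe sets had 1 gene, 503 several and 8730 others were not listed; 13436 matched RefSeq. No source used here gives the build of the array's design, so RefSeq served for names and neighbours alone. The brightest probe set stood for a gene. Probe sequences were not used here, so signal shared between close copies was not examined; 0 members' probe sets carry the suffix for shared probes. The gene with the symbol CHI was left out of the acceptor list because RefSeq describes it as a chitinase.

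The members, lists and settings were chosen with earlier results of these data known. The rule named members past the threshold and measured members of the acceptor lists. UGT71C2, UGT71C4, UGT73C2, UGT76E1, UGT85A5 and UGT88A1 fall outside it and were chosen after their values were seen. Of the other lists up to 4 genes past the threshold are named.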

Additional observations from a re-analysis of the deposited data

How the results depend on the processing

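The settings tried were 4 other scalings, leaving out the 40% or 60% dimmest probe sets, adding 1 or 64, a trended and robust prior variance, array weights, the replicate block, leaving out each sample, and averaging the probe sets of a gene. Over the 18 called members, 245 of 306 refits kept the call, 61 lost it and 0 changed sign. Members removed by a dim filter had no refit there and are not in this tally. Part of this tally was fixed in advance. Averaging could not change a member's difference, since each had 1 probe set. The dim filters, the prior variance and the replicate block also leave every difference as it was, so no sign could change there. The count of 15 rises became 2 on the deposited signals and 9 to 15 with 1 sample left out. It was 8 without the 60% dimmest probe sets, where 16 members were tested. Such counts can include members that did not pass in the reported setting. UGT76B1 was among the rises without the 60% dimmest and without cdkf;1-2 replicate 1. UGT74F1 was among the falls without cdkf;1-2 replicate 3. The 3 falls became 0 on the deposited signals, 0 with spike scaling and 0 without the 60% dimmest (limma, with 2, 2 and 0 lower at an unadjusted p under 0.05), 1 with 1 added, 1 with the replicate block and 1 to 3 with 1 sample left out. The members' median of 0.13 became 0.081 on the deposited signals, 0.18 with median centring, 0.059 with the trimmed mean, 0.29 with spike scaling, 0.35 and 0.46 without the 40% or 60% dimmest, 0.16 and 0.064 with 1 or 64 added, and 0.086 to 0.16 with 1 sample left out. The 3267 called probe sets became 328 on the deposited signals, 2122 with 1 added, 5612 with array weights and 1482 to 4122 with 1 sample left out. They became 3618 and 2588 without the 40% or 60% dimmest, where fewer probe sets were tested. With all UGT pairs within 3 gene steps, a set chosen after seeing the data, 1 pair in place of 0 was called in the same direction. Of all calls 48.3% were higher in cdkf;1-2, against 58.8% with median centring and 80.4% with spike scaling. The share was 40.7% with the trimmed mean and 45.7% on the deposited signals.

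Signs turned in members that did not pass. With spike scaling the log2 differences were 0.11 for UGT71B8, 0.023 for UGT71C4, 0.10 for UGT74D1, 0.022 for UGT80B1, 0.021 for UGT84B2 and 0.33 for UGT88A1. That scaling moved the median of all probe sets to 0.17, and once this is subtracted the first 5 were below 0, as in the reported setting, and UGT88A1 was at 0.15. With median centring they were 0.12 for UGT71B8, 0.091 for UGT84B2 and 0.10 for UGT88A1. On the deposited signals they were 0.026 for UGT71B8, -0.028 for UGT84A4 and 0.0014 for UGT88A1. With the trimmed mean they were -0.038 for UGT84A4 and 0.0015 for UGT84B2. With array weights they were 0.41 for UGT71B8, -0.0073 for UGT73C2 and -0.11 for UGT84A4, and with 1 added 0.051 for UGT71B8. With 1 sample left out the ranges were -0.34 to 0.27 for UGT71B8, -0.047 to 0.32 for UGT73B5, -0.074 to 0.36 for UGT73C2, -0.0088 to 0.068 for UGT76E1, -0.016 to 0.039 for UGT84A1, -0.18 to 0.25 for UGT84A4 and -0.023 to 0.017 for UGT84B2.

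Deviations from the group means correlated at 0.57, 0.04 and 0.40 between samples of like number 1, 2 and 3. Between unlike numbers the correlations ran from -0.53 to 0.37. For numbers 1 and 3 the like-numbered sample correlated best, and for number 2 it did not, so the numbers paired the samples only in part. With the replicate block the counts were 15 rises and 1 fall, and the calls of UGT72E3 (adjusted p = 0.0667) and UGT76E11 (adjusted p = 0.0682) were lost. The cause of these changes was not tested. Of the 50 members 31 were dimmer than the median of all probe sets, and 6 stayed below 16 in all samples.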

Other observations

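Probe sets listed for a UGT gene together with another gene were not members. The probe set shared by UGT73B2 and UGT73B3, whose enzymes act on flavonols and other phenolics, had normalized signals of 759, 539 and 681 in cdkf;1-2 seedlings, against 349, 307 and 345 in wild type seedlings, with no overlap (log2 difference 0.94, SE 0.15, limma adjusted p = 0.00857). The probe set shared by UGT71D1 and AT2G29710 had signals of 94.6, 94.9 and 119 in cdkf;1-2 seedlings, against 59.7, 57.9 and 64.9 in wild type seedlings (log2 difference 0.62, SE 0.13, limma adjusted p = 0.0205). That shared by UGT89B1 and AT1G73885 had 189.7, 312 and 292 in cdkf;1-2 seedlings, against 209, 187 and 199.6 in wild type seedlings and did not pass (log2 difference 0.36, SE 0.19, limma adjusted p = 0.263). Which gene of each pair gave the signal was not tested.

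IAGLU, described in RefSeq as an indole-3-acetate beta-glucosyltransferase and without a UGT name in the tables, had normalized signals of 924, 839 and 946 in cdkf;1-2 seedlings, against 556, 654 and 478 in wild type seedlings. Its groups did not overlap, and it rose 1.60-fold (log2 difference 0.68, SE 0.15, limma adjusted p = 0.0233).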
